A study of Saccharomyces cerevisiae with 142 samples.

Results

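The proteasome genes of budding yeast (Saccharomyces cerevisiae) were followed through 9 time courses of synchronised cultures. The set held 35 of the 5449 genes measured on the arrays: 32 subunit genes of the 26S proteasome, the transcription factor gene RPN4, the assembly chaperone gene UMP1 and the adaptor gene ECM29. Members were chosen by name, from their known place in the complex, but with earlier results of these data known. All 35 were measured, each by 1 probe set. No filter on low values was used, so no member was lost.

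The proteasome is the protease that breaks down proteins marked with ubiquitin. Its barrel, the 20S core, is built of alpha rings, which form the gate, and beta rings, which hold the active sites. The regulatory particle on the barrel's end has a base, with a ring of ATPases that unfold the substrate, and a lid, which removes the ubiquitin chain. In budding yeast, Rpn4 binds a shared element in the promoters of most proteasome genes and switches them on, and the proteasome rapidly destroys Rpn4, so that a shortfall of proteasome activity raises its own supply. In dividing cells the proteasome removes cyclins and other regulators that ubiquitin ligases mark for destruction, among them those marked with the help of Cdc20, which starts anaphase.

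RNA was measured on 142 Affymetrix arrays in 6 groups. All strains were of the BF264-15D or BF264-15DU background and MATa. A bar1 mutation, which makes MATa cells very sensitive to alpha factor, was listed for all groups but the cyclin mutant. The 30 °C wild type (2 courses), the cyclin mutant (2 courses) and the cdc20 mutant (2 courses) were sampled in rich dextrose medium with 1 M sorbitol at 30 °C, starting from small G1 cells sorted by elutriation. The cyclin mutant carried clb1::URA3, clb2::LEU2 and clb3::TRP1 together with clb4::HIS2, clb5::ARG4 and clb6::APE1, so all B-type cyclin genes were disrupted, and it also held GAL1-CLB1:LEU2, a CLB1 copy behind a galactose-induced promoter. The cdc20 mutant carried cdc20::LEU2, a CDC20 copy written in the labels as Pgall-CDC20::ADE2, and a tagged tubulin, CFP-TUB1::URA3. The 37 °C wild type (1 course) was grown at 25 °C, elutriated and moved to medium prewarmed to 37 °C at time 0. The mutants cdc14-3 and cdc15-2 (1 course each), which are temperature-sensitive for mitotic exit, were held at 25 °C by alpha factor before release to 37 °C.

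Courses held 14 to 21 arrays each. The first sample came at 20 to 40 min in the courses at 30 °C, at 15 min in the 37 °C wild type and at 0 min in cdc14-3 and cdc15-2. Values are log2 intensities, on which a step of 1 is a 2-fold change; levels of different genes come from different probes and are not compared. Serial arrays of a course come from 1 culture, so p-values for change over time measure the scatter of arrays around a smooth curve, and precision is limited by how many arrays there are. In bulk RNA, fewer cells that express a gene and less of its RNA per cell cannot be told apart. The summed MATa markers read 12.5 to 16.1 and the summed MATalpha markers 9.74 to 11.3 over all arrays; all groups are labelled MATa. Of the disrupted genes, CLB2, CLB3, CLB4 and CLB6 had a lower late level in the cyclin mutant than in the 30 °C wild type, with differences of -3.63, -3.52, -2.20 and -1.01. The CLB1 reading differed by 0.30 ± 0.11 (SE; adjusted p = 0.1, limma) and the CLB5 reading by 0.68 ± 0.15 (adjusted p = 0.0244). CDC20 in the cdc20 mutant differed by -0.78 ± 0.11 (adjusted p = 0.00234). Which part of each gene its probes cover is not given in the sources used here. Arrays of the 30 °C wild type, replicate 2, were used with their values moved by 1 row, because as deposited they had a correlation of 0.0461 with replicate 1 over probe sets and after the move 0.996; this displacement is inferred from the values.

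**Figure D1:**
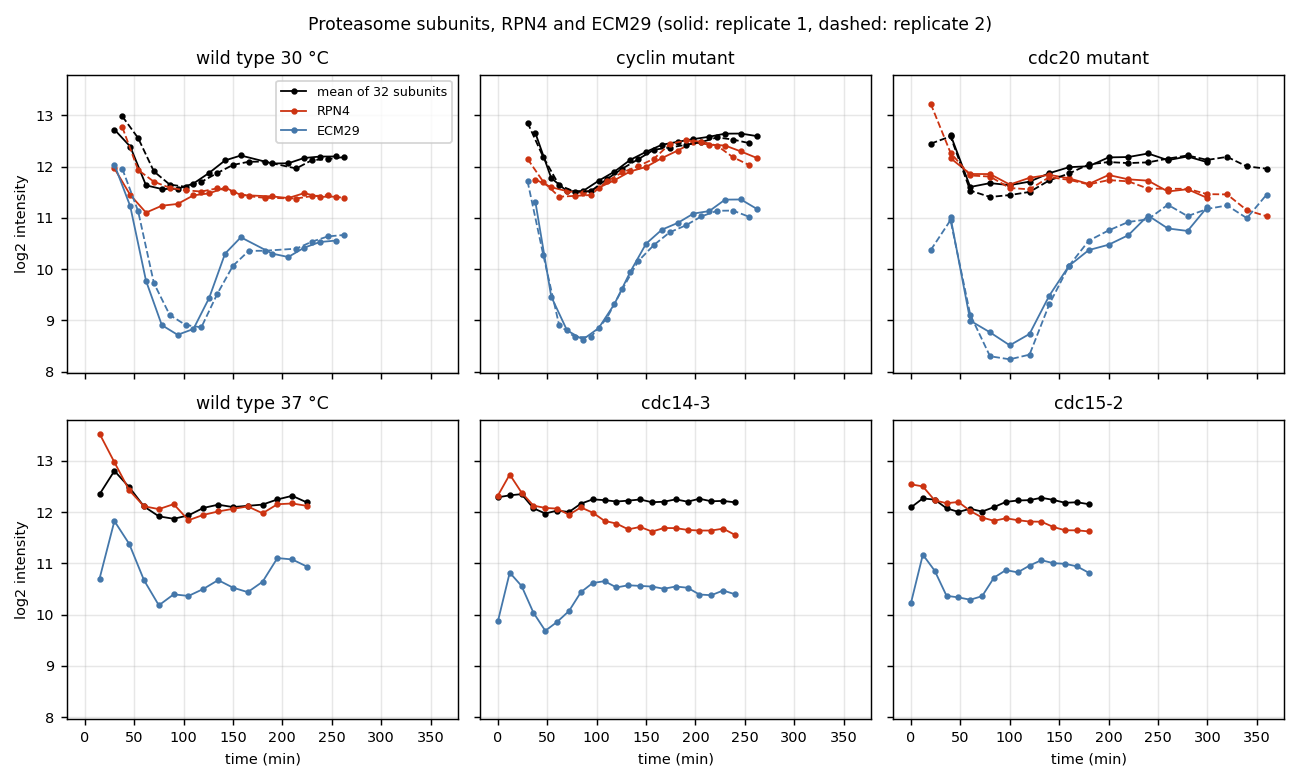
Log2 intensity (vertical axis) of RPN4, ECM29 and the mean of the 32 subunit genes against time in min (horizontal axis), 1 panel per group, with 1 point per array, solid lines for replicate 1 and dashed lines for replicate 2. The subunit mean is highest in the first or second array of the elutriated courses and lowest at 60 to 102 min. It recovers later in part, and in cyclin mutant replicate 1 almost to its early level. In cdc14-3 and cdc15-2 it stays between 11.97 and 12.35. The height of a line relative to another gene's has no meaning.

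In the 30 °C wild type the subunits of the complex were highest in the first samples, lowest at 62 to 118 min and at intermediate levels afterwards. Change over time was tested for each gene by a limma F-test of a smooth curve, and called at a Benjamini-Hochberg adjusted p under 0.05 together with a fitted range of at least 1. By this rule 32 of the 35 members changed, against 36% of all genes, and by the adjusted p alone 35 of 35 did, against 88.3%. The 3 members without a call were RPN4, PRE5 and RPN13, with fitted ranges of 0.96, 0.89 and 0.88. The median fitted range of the 32 subunits was 1.37, beside 0.74 for all genes.

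The mean of the 32 subunits in replicate 1 started at 12.72 (30 min), reached 11.56 at 78 min and ended at 12.20 (254 min). In replicate 2 it started at 12.98 (38 min), reached 11.60 at 102 min and ended at 12.18 (262 min). All 32 subunits had their maximum in the first array of replicate 2, and in replicate 1 all did but RPN13, which had it in the second array. Single subunits were 0.64 to 1.76 higher at their early maximum than at their trough in replicate 1 and 0.91 to 1.86 higher in replicate 2. The later recovery from the trough was smaller, with medians of 0.73 and 0.60 in the 2 replicates.

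Of the alpha ring 6 of 7 genes changed (median fitted range 1.33), of the beta ring 7 of 7 (1.36), of the base 9 of 10 (1.44) and of the lid 8 of 8 (1.60). The ATPase gene RPT2 had the largest fitted range of the subunits, 1.96 (adjusted p = 8.59e-11), followed by the lid scaffold gene RPN6 with 1.81 (adjusted p = 1.76e-10) and the base scaffold gene RPN2 with 1.75 (adjusted p = 7.77e-11). RPT2 read 10.50 at its lowest, 11.36 at the median and 12.26 at its highest in replicate 1, and 10.60, 11.38 and 12.46 in replicate 2. Its highest value was in the first array of each replicate and the lowest at 94 and 86 min. At the other end, RPN13, a ubiquitin receptor of the base, read 11.79 to 12.43 in replicate 1 and 11.69 to 12.60 in replicate 2.

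ECM29, whose product clamps the regulatory particle to the core, had the widest fitted range of the 35 members. Its lowest, median and highest values were 8.72, 10.30 and 12.04 in replicate 1 and 8.86, 10.36 and 11.96 in replicate 2, and the fitted range was 3.58 (adjusted p = 2.18e-12). Its trough came at 94 and 118 min, inside the same window as that of the subunits. UMP1, whose product guides assembly of the beta ring and is then degraded, had a fitted range of 1.40 (adjusted p = 1.9e-08). It read 10.44 to 11.58 in replicate 1 and 10.65 to 12.22 in replicate 2.

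RPN4, the activator of these genes, had a fitted range of 0.96 (adjusted p = 5.8e-04) in this group, without a call. Its lowest, median and highest values were 11.10, 11.43 and 11.96 in replicate 1 and 11.38, 11.51 and 12.77 in replicate 2. The highest value was in the first array of both replicates, and from 100 min on RPN4 stayed between 11.38 and 11.59 in both, while the subunit mean over that stretch went from 11.67 and 11.60 to 12.20 and 12.18.

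Most of these calls rest on the first samples. With samples before 60 min left out, an alternative added after the data were seen, 2 of 35 members were called in the 30 °C wild type. For this alternative the share of all genes called was not counted in any group, so a wider loss of calls cannot be told apart. The 3′ minus 5′ log2 difference of the ACT1 control probe sets, a sign of RNA length, was also highest in the first array, with 0.78 in replicate 1 and 0.67 in replicate 2 beside course means of 0.41 and 0.43. The mean of 14 heat shock chaperones, genes with the stress factor Hsf1 among their activators, was highest in the first array too. It read 12.89 and 12.95 there, and 10.95 and 11.23 at its lowest. The genes of this list moved unevenly, with fitted ranges from 0.19 (SSE1) to 5.75 (HSP42) in the 30 °C wild type. In the other elutriated courses the first array's ACT1 difference was 0.67 beside a mean of 0.51 (the 37 °C wild type), 0.52 beside 0.58 and 0.67 beside 0.50 (cyclin mutant), and 1.10 beside 0.51 and 0.76 beside 0.48 (cdc20 mutant). The TDH1 control probe sets went otherwise, with first arrays of 2.37 beside a mean of 2.15 and 1.77 beside 1.89 in the 30 °C wild type. Elsewhere the first array had the lowest TDH1 difference of its course: 0.98 (37 °C wild type), 1.69 and 1.42 (cyclin mutant), and 2.13 and 0.79 (cdc20 mutant). What part these have in the proteasome result was not tested.

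A cosine fitted at 105 min, the period that suited the cell cycle reference genes best in the 30 °C wild type, was called for 22 of the 35 members, against 13.5% of all genes. These were 21 of 32 subunits and ECM29, whose fitted peak-to-trough was 1.53 (adjusted p = 0.0141). RPN4 had 0.38 and UMP1 0.53, under the size asked for. The count was 1 with samples before 60 min left out and 0 with either replicate left out. In the 37 °C wild type, at 90 min, the periodic test called 0 members by limma, against 0% of all genes, with 9 members at an unadjusted p under 0.05, beside 9.6% of all genes.

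**Figure D2:**
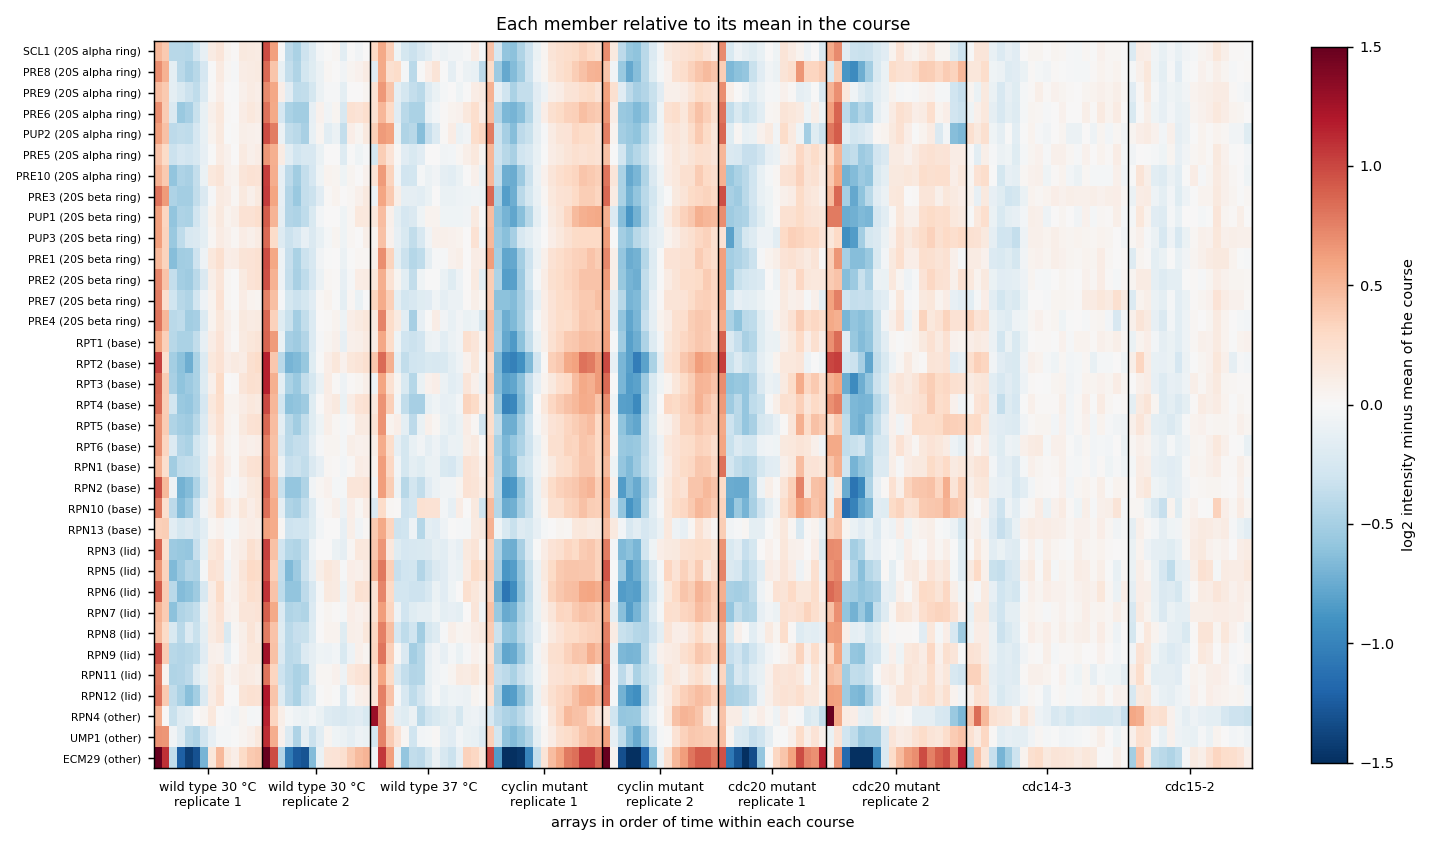
Each row is 1 of the 35 members and each column 1 of the 142 arrays, ordered by time within a course; colour gives log2 intensity minus the mean of that gene in that course, with values past 1.5 in either direction drawn in the end colours. In the 7 elutriated courses red early arrays are followed by a blue band in nearly every row, the cyclin mutant turns red again late, and cdc14-3 and cdc15-2 are pale throughout.

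In the cyclin mutant the subunits were also high early and lowest at 62 to 110 min, and their late levels came close to the early ones. In this group 34 of 35 members changed over time, against 37.5% of all genes (35 of 35 against 93.8% by the adjusted p alone), and RPN13, with a fitted range of 0.82, was the exception. The subunit mean in replicate 1 started at 12.65 (38 min), reached 11.52 at 70 min and was back at 12.64 by 246 min. In replicate 2 it started at 12.86 (30 min), reached 11.51 at 78 min and was at 12.57 by 222 min. The late maximum stood a median of 1.19 and 1.12 above the trough over the 32 subunits, and the overall maximum fell differently in the courses. In replicate 1 it came late in 18 of 32 subunits and in the first array in 14, while in replicate 2 it came in the first array in 31 and late in 1, PRE8 (238 min). With samples before 60 min left out 26 members were called, with no share of all genes counted for that alternative.

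RPT2 again had the largest subunit range, 1.88, followed by RPN6 with 1.74 and PRE3, which encodes an active-site subunit of the beta ring, with 1.73, and after RPN13 the smallest was PRE5 of the alpha ring with 1.01. RPT2 read 10.49, 11.83 and 12.32 as lowest, median and highest in replicate 1 and 10.37, 11.62 and 12.39 in replicate 2. ECM29 read 8.63, 10.77 and 11.36 in replicate 1 and 8.67, 10.47 and 11.72 in replicate 2. Its 2 courses followed each other closely, with the lowest arrays at 86 and 78 min. UMP1 had a fitted range of 1.29 and read 10.91 to 12.03 and 10.61 to 11.98.

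RPN4 changed over time in the cyclin mutant, with a fitted range of 1.04 (adjusted p = 4.15e-15). Its lowest, median and highest values were 11.49, 11.99 and 12.47 in replicate 1 and 11.41, 12.03 and 12.51 in replicate 2. The highest value came at 198 and 190 min and the lowest at 86 and 62 min, and the peak was followed by lower values to the end of the course. The subunit mean reached its late maximum at 246 and 222 min. The heat shock gene SSA4, a cytosolic Hsp70, was at 10.28 and 10.56 in the lowest arrays and at 12.58 and 12.44 in the highest late ones, and the mean of the 14 heat shock chaperones had its late maximum, 13.12 and 12.98, at 230 and 206 min.

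In the cdc20 mutant the subunit mean was again highest at 40 min, and single subunits differed in how far they came back later. Here 32 of 35 members changed, against 56.4% of all genes, and 35 of 35 by the adjusted p alone, against 96%. The median fitted range of the subunits was 1.33, beside 1.11 for all genes. The subunit mean in replicate 1 started at 12.62 (40 min), reached 11.60 at 60 min and had a late maximum of 12.25 at 240 min. In replicate 2 it had 12.59 at 40 min, a minimum of 11.41 at 80 min and a late maximum of 12.22 at 280 min. Without replicate 2 the count was 17, without the sample before 30 min, which only replicate 2 has, it was 19, and with samples before 60 min left out it was 6.

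The alpha ring gene PRE8 read 11.21 at 60 min and 12.54 at 240 min in replicate 1, and 11.11 at 80 min and 12.55 at 360 min in replicate 2, so that its highest arrays were late. RPN10, a ubiquitin receptor, was likewise lowest at 60 min in both replicates and highest late, with 11.56 at 240 min and 11.65 at 320 min. PUP2, of the alpha ring, was highest at 40 min, with 13.10 and 12.99, and lowest late, with 11.72 at 260 min and 11.42 at 360 min. The largest fitted subunit ranges were those of RPT2 (1.85), the active-site gene PUP1 (1.77) and RPN6 (1.70), and the smallest those of RPN13 (0.69) and PUP3, of the beta ring (0.94).

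ECM29 read 8.51, 10.42 and 11.21 as lowest, median and highest in replicate 1 and 8.24, 10.84 and 11.45 in replicate 2, with the lowest at 100 min and the highest in the last array of both (fitted range 2.96, adjusted p = 9.94e-13). UMP1 had a fitted range of 0.89, under the size asked for, and read 11.05 to 11.85 and 10.96 to 11.94. RPN4 had a fitted range of 1.87 (adjusted p = 4.3e-12). It read 11.39, 11.76 and 12.16 in replicate 1 and 11.03, 11.62 and 13.22 in replicate 2, with the highest value in the first array and the lowest in the last array of both replicates. The TDH1 control probe sets had a 3′ minus 5′ difference of 0.79 in the first array of replicate 2 and 3.41 at 100 min, and of 2.13 and 3.70 at 40 and 80 min in replicate 1; its part in the result was not tested.

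In the 37 °C wild type, sampled from 15 min after the shift to heat, RPN4 was highest before the subunits were. RPN4 read 13.53 at 15 min, 12.97 at 30 min, 12.43 at 45 min and 11.84 at its lowest, at 105 min. The subunit mean read 12.35 at 15 min, 12.81 at 30 min, 12.49 at 45 min and 11.87 at 90 min, so its highest array was the one after that of RPN4. All 32 subunits had their maximum at 30 min. SSA4 was highest at 15 min, with 13.98, and at 9.86 at 105 min, and the mean of the 14 heat shock chaperones read 13.99 at 15 min and 12.36 at 105 min.

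By the test, 6 of 35 members changed over time in the 37 °C wild type, against 32.6% of all genes, and 23 of 35 by the adjusted p alone, against 76.3%, both shares below the background. RPN4 was called with a fitted range of 1.53 (adjusted p = 5e-07). The others were PUP2 (1.17), the lid genes RPN5 (1.14), RPN8 (1.06) and RPN9 (1.01), and RPT2 (1.07). Smallest were RPN10, with 0.26, and PRE5, with 0.38. ECM29 read 10.18, 10.67 and 11.83 as lowest, median and highest, with a fitted range of 0.95 (adjusted p = 0.0702), and UMP1 read 11.47 to 12.51, with a fitted range of 0.61 (adjusted p = 0.104). The observed ranges of single subunits were 0.59 to 1.31, with a median of 0.99, beside a median fitted range of 0.72. Without the array at 15 min 14 members were called, and with samples before 60 min left out 0 were.

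In cdc14-3 and cdc15-2, released from alpha factor rather than elutriated, the complex moved little. No member reached a fitted range of 1 in either group, 0 of 35 against 22.8% of all genes in cdc14-3 and 0 of 35 against 19% in cdc15-2, with 27 and 24 members at an unadjusted limma p under 0.05, beside 77.4% and 74% of all genes. By the adjusted p alone 25 members changed in cdc14-3, against 75.5% of all genes, and 20 in cdc15-2, against 69.5%, shares again below the background. The median fitted range of the subunits was 0.35 in cdc14-3 and 0.28 in cdc15-2, beside 0.58 and 0.55 for all genes. The subunit mean in cdc14-3 was lowest at 48 min (11.97) and highest at 24 min (12.35). In cdc15-2 it was lowest at 48 min (12.01) and highest at 132 min (12.28).

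RPN4 had the widest fitted range of the 35 members in both groups. In cdc14-3 its lowest, median and highest values were 11.56, 11.78 and 12.73, with the highest at 12 min and the lowest at 240 min (fitted range 0.96, adjusted p = 1.28e-06). In cdc15-2 they were 11.62, 11.86 and 12.54, with the highest at 0 min and the lowest at 180 min (fitted range 0.94, adjusted p = 2.63e-06). ECM29 read 9.69 to 10.82 and 10.23 to 11.17, highest at 12 min in both (fitted ranges 0.60 and 0.71, adjusted p = 0.0962 and 0.0627), and UMP1 read 11.21 to 11.69 and 11.10 to 11.46.

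Of the subunits, RPN11, the lid's deubiquitinase (0.63), PUP3 (0.62) and RPN5 (0.59) had the largest fitted ranges in cdc14-3, and RPN5 (0.49), RPN6 (0.42) and RPN8 (0.40) in cdc15-2. The smallest were those of PRE5 and PRE6 (0.12 and 0.22) in cdc14-3 and of PRE5 and PUP1 (0.14 and 0.18) in cdc15-2. SSA4, in contrast, read 13.66 at 12 min in cdc14-3 and 13.92 at 12 min in cdc15-2, from 11.19 and 12.24 at 0 min. Temperature, genotype, synchronisation by alpha factor or elutriation, array series, RNA protocol and medium differ together between these groups and those at 30 °C. Their parts cannot be told apart.

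**Figure D3:**
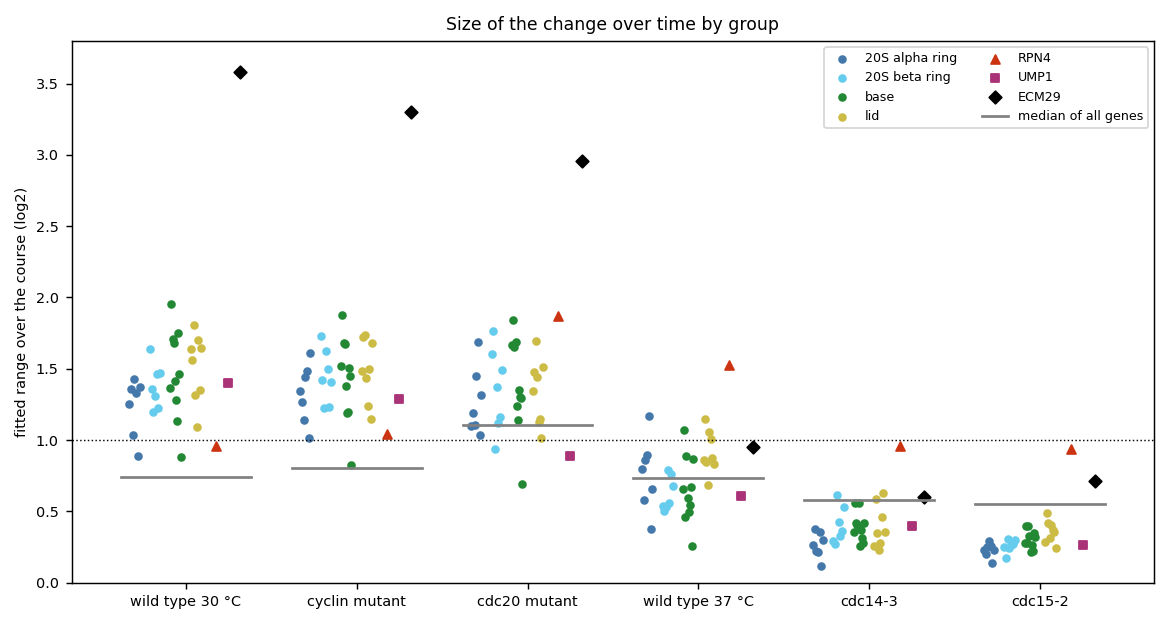
Fitted range over the course (vertical axis, log2) for each of the 35 members, by group along the horizontal axis; circles are subunits coloured by part of the complex, other symbols RPN4, UMP1 and ECM29, grey lines the median of all 5449 genes and the dotted line the range of 1 asked for in a call. Subunits lie mostly above the grey line in the 30 °C wild type and the cyclin mutant and below it in cdc14-3 and cdc15-2.

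The subunits were compared with each other within each course. The median Pearson correlation between pairs of the 32 subunits, over the 14 to 21 serial arrays of a course, was 0.95 and 0.96 in the 30 °C wild type, 0.98 and 0.97 in the cyclin mutant, 0.85 in both cdc20 courses, 0.84 in the 37 °C wild type, 0.74 in cdc14-3 and 0.71 in cdc15-2. The lowest value of any pair was 0.81 and 0.78 in the 30 °C wild type and 0.76 and 0.65 in the cyclin mutant. In every other course some pair was near 0 or below it, with 0.04 and 0.05 in the cdc20 mutant, 0.01 in the 37 °C wild type, 0.04 in cdc14-3 and -0.17 in cdc15-2. Arrays of a course share a culture and neighbouring times, so these values are descriptions.

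RPN4 followed the subunit mean in some courses and not in others. Its correlation with the subunit mean was 0.80 and 0.73 in the 30 °C wild type, 0.86 and 0.85 in the cyclin mutant, 0.66 in the 37 °C wild type, 0.16 and 0.34 in the cdc20 mutant, 0.10 in cdc14-3 and -0.19 in cdc15-2. Over the 11 to 16 arrays from 60 min on it was 0.97 and 0.93 in the cyclin mutant, 0.68 and -0.61 in the 30 °C wild type and 0.37 in the 37 °C wild type. In the cdc20 mutant it was then -0.41 and -0.34, in cdc14-3 -0.55 and in cdc15-2 -0.41. Set against the subunit mean of the next array instead, it was 0.76 and 0.45 in the 30 °C wild type, 0.93 and 0.94 in the cyclin mutant, 0.82 in the 37 °C wild type, -0.58 and 0.24 in the cdc20 mutant, -0.05 in cdc14-3 and -0.11 in cdc15-2. With the mean of the heat shock chaperones, RPN4 had 0.95 in both cyclin mutant courses, 0.97 in the 37 °C wild type, 0.91 in cdc14-3 and 0.88 in cdc15-2. In the 30 °C wild type this value was 0.86 and 0.80, and in the cdc20 mutant -0.15 and 0.36.

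Over all 142 arrays, each gene centred within its course, the members nearest to the subunit mean were RPN12 and RPT1 (both r = 0.98). The subunit farthest from it was RPN13 (0.77). For these values each subunit was left out of the mean it was compared with. ECM29 had 0.92, UMP1 0.87 and RPN4 0.55, beside a median of -0.08 and a 95th percentile of 0.77 for all genes. High values were not particular to the set. The median was 0.81 for the 14 heat shock chaperones and 0.79 for 22 ubiquitin and Cdc48 genes, and -0.38 for the cell cycle reference genes. The 10 genes outside the set with the highest values were MAG1, a DNA glycosylase (0.96), YPI1, a regulator of protein phosphatase (0.96), the Cdc48 cofactor gene SHP1 (0.95), the Hsp90 co-chaperone gene SBA1 (0.95) and UFD1, another Cdc48 cofactor (0.93), then PNC1 (0.93), TMC1 (0.93), the disaggregase gene HSP104 (0.92), PEX30 (0.92) and UBP6, a deubiquitinase bound to the proteasome (0.92).

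Genes that serve the proteasome without being part of the set were counted from lists. Of 12 measured assembly chaperones and activators, 6 changed over time in the 30 °C wild type, 5 in the cyclin mutant, 8 in the cdc20 mutant, 4 in the 37 °C wild type, 2 in cdc14-3 and 2 in cdc15-2. The share of all genes called was 36%, 37.5%, 56.4%, 32.6%, 22.8% and 19% in the same order, so these counts lie near the background. TMA17, a base assembly chaperone, had the widest range in every group, from 1.94 in cdc14-3 to 5.49 in the cdc20 mutant. NAS2, also for the base, had 1.85 in the 30 °C wild type, 1.44 in the cyclin mutant and 2.35 in the cdc20 mutant. POC4, which helps to build the alpha ring, went the other way in heat: its fitted curve was lowest at 15 min in the 37 °C wild type (range 2.06) and at 0 min in cdc14-3 (1.46) and cdc15-2 (1.05).

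Of 22 genes of the ubiquitin and Cdc48 system, 17 changed in the 30 °C wild type, 16 in the cyclin mutant, 16 in the cdc20 mutant, 5 in the 37 °C wild type, 1 in cdc14-3 (OTU1, a Cdc48-bound deubiquitinase) and 1 in cdc15-2 (UBC5, a ubiquitin-conjugating enzyme). Against the same shares of all genes, the counts were above the background in the groups at 30 °C and below it in the 37 °C wild type, cdc14-3 and cdc15-2. The polyubiquitin gene UBI4 had fitted ranges of 3.96, 3.73 and 3.88 in the groups at 30 °C and 1.27 in the 37 °C wild type. CUZ1, a zinc finger protein that binds Cdc48 and the proteasome, had 2.58, 2.73, 2.36 and 1.69 in the same order, and UFD1 had 2.43, 1.95, 2.26 and 1.26. Among 4 genes known to act on RPN4 transcription, YAP1, the oxidative stress factor, was called in the 30 °C wild type (1.13), the cyclin mutant (1.33), the cdc20 mutant (1.30) and the 37 °C wild type (1.06). The drug resistance factor gene PDR1 was called in the 30 °C wild type (1.00) and the cdc20 mutant (1.52), PDR3 in the 37 °C wild type (1.17), and HSF1 in no group.

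Levels late in the courses were compared between groups with 1 value per course, the mean from 100 min to the end, in 1 limma fit over all 9 courses. Its spread comes from the 3 groups with replicates, so the 37 °C wild type, cdc14-3 and cdc15-2 are assumed to vary like them. The 3 comparisons with the 30 °C wild type share its 2 courses, and those of cdc14-3 and cdc15-2 share the 1 course of the 37 °C wild type. Late windows end between 180 and 360 min.

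In the cyclin mutant the late level of 12 members was higher than in the 30 °C wild type, against 8.72% of all genes called higher, and of 0 lower, against 6.63%. RPN4 had the largest difference: 12.13 and 12.18 in the cyclin mutant courses and 11.45 and 11.46 in wild type, a difference of 0.70 ± 0.10 (SE; adjusted p = 0.00525). UMP1 was at 11.66 and 11.50 against 10.84 and 10.96 (difference 0.68 ± 0.12, adjusted p = 0.0114), and ECM29 at 10.58 and 10.52 against 10.14 and 10.03 (0.47 ± 0.12, adjusted p = 0.0421). The courses of the groups did not overlap in these 3 genes, all called on the same values. The share of all genes without overlap was not counted.

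Of the subunits 9 of 32 were higher, and 31 of 32 differences were above 0, with a median of 0.33 beside 0.01 for all genes. They were PRE8 of the alpha ring, PUP1, PRE2 and PRE4 of the beta ring, the ATPase genes RPT4 and RPT5, and RPN6, RPN9 and RPN12 of the lid. RPN6 differed by 0.55 ± 0.12 (adjusted p = 0.0204), RPN12 by 0.53 ± 0.13 (adjusted p = 0.032) and PUP1 by 0.50 ± 0.10 (adjusted p = 0.0178), while RPN13 differed by 0.03 ± 0.13 and RPN11 by -0.01 ± 0.11. In the same comparison 13 of 14 heat shock chaperones and 8 of 22 ubiquitin and Cdc48 genes were higher, UBI4 by 1.43 ± 0.14. The 12 calls became 0 without either wild type course, 1 without replicate 1 and 4 without replicate 2 of the cyclin mutant, 18 without either cdc20 mutant course, and 0 with the window ended at 180 min.

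In the cdc20 mutant members were called in both directions. Compared with the 30 °C wild type, 3 members were higher, against 26% of all genes, and 5 lower, against 16.3%, shares below the background, and the median subunit difference was -0.02. The lower ones were RPN1, RPT1, RPT4 and RPT5 of the base and RPN11 of the lid. RPN1, a scaffold of the base, was at 12.05 and 12.12 against 12.55 and 12.54 (difference -0.46 ± 0.10, adjusted p = 0.0112), and RPT1 was at 11.86 and 11.87 against 12.34 and 12.23 (-0.42 ± 0.10, adjusted p = 0.015). The higher ones were UMP1 (0.56 ± 0.12, adjusted p = 0.00969), RPN12 (0.43 ± 0.13, adjusted p = 0.0317) and RPN13 (0.39 ± 0.13, adjusted p = 0.048).

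RPN4 differed by 0.16 ± 0.10 (adjusted p = 0.248) and ECM29 by 0.24 ± 0.12 (adjusted p = 0.151) in that comparison, and the smallest subunit differences were those of RPT2 (-0.03 ± 0.11) and RPN7 (-0.01 ± 0.10). Around the complex, RAD23, a shuttle that brings ubiquitinated proteins to the proteasome, differed by -1.01 ± 0.10, CDC48 differed by -0.65 ± 0.13, and UBI4 by 0.96 ± 0.14. Without either wild type course 0 members were called, 5 were without cdc20 replicate 1 or without either cyclin mutant course, and 11 were without cdc20 replicate 2.

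The 37 °C wild type had 9 members higher than the 30 °C wild type, against 29.1% of all genes, and 3 lower, against 22.3%, both shares below the background. RPN12 had the largest difference, 12.43 against 11.60 and 11.57 (0.84 ± 0.15, adjusted p = 0.0037). UMP1 was at 11.68 against 10.84 and 10.96 (0.78 ± 0.15, adjusted p = 0.00404), ECM29 at 10.70 against 10.14 and 10.03 (0.62 ± 0.15, adjusted p = 0.0114) and RPN4 at 12.05 against 11.45 and 11.46 (0.59 ± 0.13, adjusted p = 0.00657).

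The other higher subunits were SCL1 (0.53 ± 0.15), PRE9, PRE3 (0.53 ± 0.12), PRE1 and PRE7, all of the core, and the lower ones RPN10 (-0.47 ± 0.14), RPN1 and RPT5, all of the base. RPN7 and RPN5 differed least, by -0.02 ± 0.13 and 0.00 ± 0.19. Of the 12 assembly chaperones and activators 8 were higher at 37 °C, TMA17 by 1.60 ± 0.21 and NAS2 by 1.25 ± 0.12, and UBI4 was higher by 2.87 ± 0.17. Member calls numbered 4 without replicate 1 and 3 without replicate 2 of the 30 °C wild type.

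**Figure D4:**
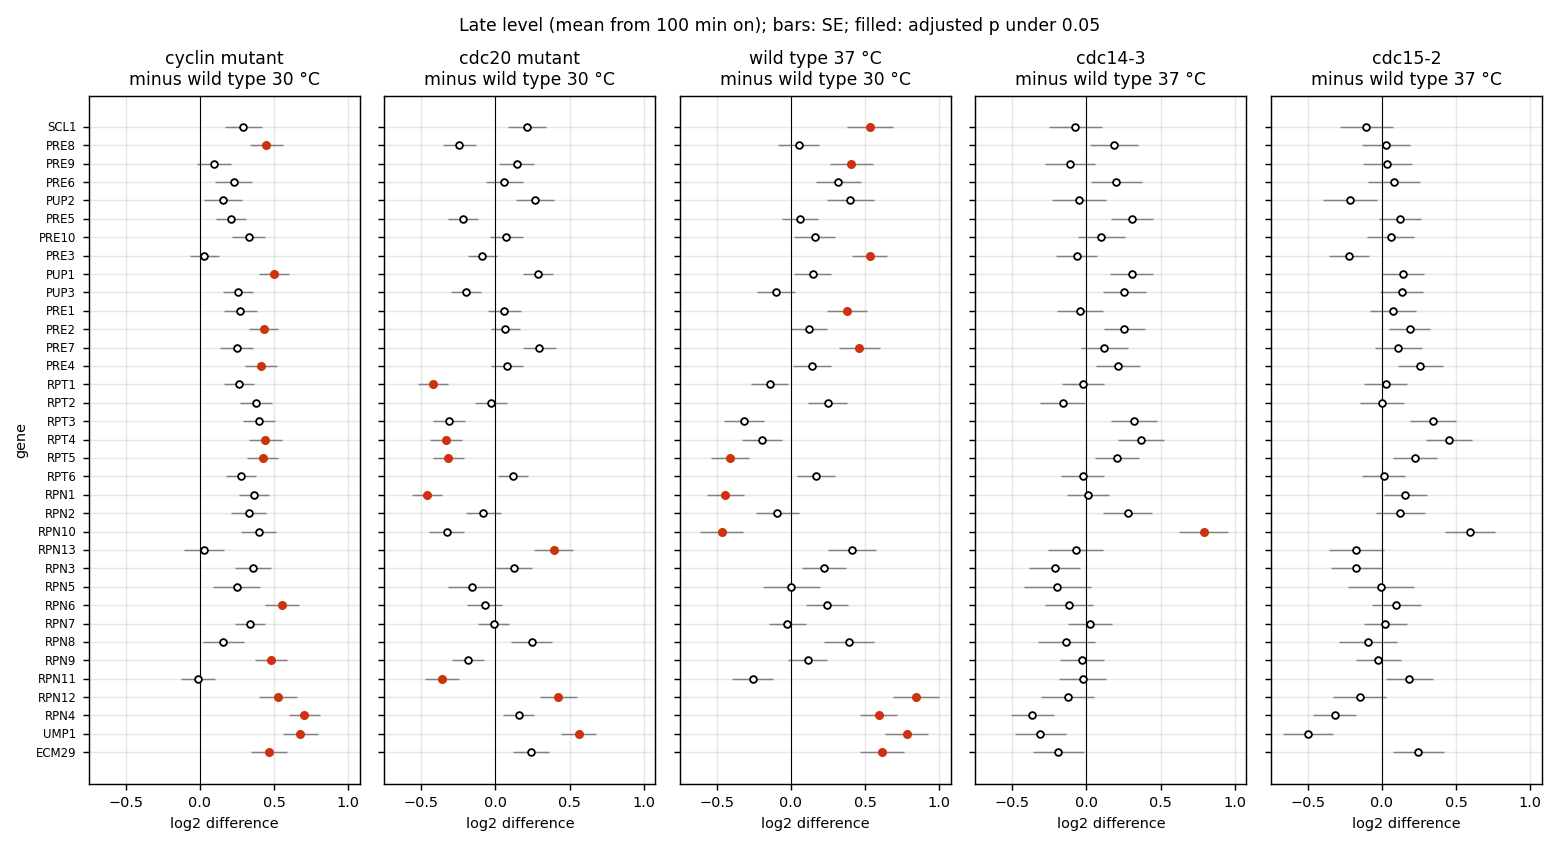
Difference in late level (horizontal axis, log2, mean from 100 min on) for each of the 35 members (vertical axis) in 5 comparisons, with bars for the SE of the limma fit and filled red points for an adjusted p under 0.05. In the cyclin mutant 34 of 35 points lie above 0; in cdc14-3 and cdc15-2 only RPN10 of cdc14-3 is filled.

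Against the 37 °C wild type, cdc14-3 had 1 member higher, against 3.84% of all genes, and 0 lower, against 3.27%, with 3 members at an unadjusted p under 0.05, beside 28.7% of all genes. The one called was RPN10, at 11.80 against 11.01 (0.79 ± 0.17, adjusted p = 0.0396), and this call was lost without either course of the 30 °C wild type or of the cyclin mutant, which here serve only to estimate the spread. RPT4 differed by 0.37 ± 0.15 and RPT3 by 0.32 ± 0.15, RPT1 and RPN1 by -0.02 and 0.01, RPN4 by -0.37 ± 0.14 (adjusted p = 0.152), UMP1 by -0.31 ± 0.17 and ECM29 by -0.19 ± 0.17.

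In cdc15-2 limma called 0 members against the 37 °C wild type (1.71% of all genes were higher and 2.24% lower), and 3 had an unadjusted p under 0.05, beside 24.4% of all genes. RPN10 again had the largest subunit difference, 0.59 ± 0.17 (adjusted p = 0.0896), followed by RPT4 with 0.45 ± 0.15 and RPT3 with 0.34 ± 0.15, while RPN5 and RPT2 stood at -0.01 and 0.00. RPN4 differed by -0.32 ± 0.14 (adjusted p = 0.235), UMP1 by -0.50 ± 0.17 (adjusted p = 0.134) and ECM29 by 0.25 ± 0.17. RPN10 in the 37 °C wild type read 10.65 to 11.24, below all arrays of cdc14-3 (11.45 to 11.95), while its arrays in cdc15-2 ran from 11.17 to 11.86.

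Finally the change within a course, the late level minus the mean up to 60 min, was compared in the same way. The early mean rests on 2 arrays in the 30 °C wild type and the cyclin mutant and on 2 or 3 in the cdc20 mutant, where it includes an array at 60 min, already near the trough; the first 2 arrays of wild type were taken at 30 to 54 min. In the 30 °C wild type all 35 members were lower late than early in both courses. The share of all genes lower late in both courses was not counted. ECM29 stood at -1.51 on average, UMP1 at -0.74 and -0.98 and RPN4 at -0.25 and -0.89.

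In the cyclin mutant ECM29 stood at 0.19 and -0.48, a difference from wild type of 1.36 ± 0.24 (adjusted p = 0.0488), and it was the 1 member called higher, against 0.991% of all genes, with 0 lower, against 1.38%. All 35 differences were above 0, with a median of 0.65 beside -0.02 for all genes, and 27 had an unadjusted p under 0.05, beside 23.5% of all genes. RPN4 stood at 0.46 and 0.26 (difference 0.93 ± 0.29, adjusted p = 0.137) and UMP1 at 0.07 and -0.12 (0.83 ± 0.20, adjusted p = 0.0893). The largest subunit differences were RPN9 (0.86 ± 0.22), RPT4 (0.82 ± 0.23) and PRE8 (0.80 ± 0.17), and the smallest PRE9 (0.32 ± 0.18) and RPN13 (0.24 ± 0.17). The call of ECM29 was lost without any 1 course but cyclin mutant replicate 2, and with a late window from 120 min.

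In the cdc20 mutant 6 members were called higher than in the 30 °C wild type, against 7.27% of all genes, and 0 lower, against 8.48%. ECM29 stood at 0.19 and 0.30 (difference 1.75 ± 0.24, adjusted p = 0.0168), RPN2 at 0.34 and 0.36 (1.09 ± 0.18, adjusted p = 0.0221), PRE8 at 0.24 and 0.37 (0.97 ± 0.17, adjusted p = 0.0231) and RPN10 at 0.31 and 0.40 (0.97 ± 0.17, adjusted p = 0.0232). PUP3 (0.85 ± 0.19, adjusted p = 0.0335) and UMP1 (0.77 ± 0.20, adjusted p = 0.0468) were the others. In these 6 genes, called on the same values, the courses of the groups did not overlap, and again no share of all genes was counted. RPN4 differed by -0.04 ± 0.29 (adjusted p = 0.927), and RPN5 (0.15 ± 0.24) and PRE9 (0.10 ± 0.18) were the smallest subunit differences. The count was 0 without either wild type course, 0 without cdc20 replicate 1, 1 without cdc20 replicate 2, 10 without either cyclin mutant course, and 0 with a late window of 100 to 180 min.

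No member was called in the other comparisons of this change. Between the 37 °C wild type and at 30 °C limma called 0 members (0.202% of all genes higher, 0.422% lower) and 2 had an unadjusted p under 0.05, beside 15.7% of all genes. RPN10 (0.64 ± 0.21), RPT3 (0.56 ± 0.30) and PRE3 (0.50 ± 0.22) had the largest subunit differences and RPN5 (0.15 ± 0.29) and RPN8 (0.14 ± 0.29) the smallest, with ECM29 at 1.06 ± 0.29 (adjusted p = 0.195), UMP1 at 0.50 ± 0.24 and RPN4 at -0.14 ± 0.35. Between cdc14-3 and the 37 °C wild type limma called 0 members (0% of all genes in both directions), with 1 at an unadjusted p under 0.05, beside 6.88% of all genes. ECM29 differed by 0.82 ± 0.34, PRE7 by 0.55 ± 0.26, RPN5 by 0.51 ± 0.33, RPN8 by 0.51 ± 0.33, RPN11 by 0.15 ± 0.30, RPN10 by 0.09 ± 0.25, UMP1 by 0.28 ± 0.28 and RPN4 by 0.11 ± 0.40.

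Between cdc15-2 and the 37 °C wild type limma also called 0 members (0% of all genes higher, 0.0551% lower), with 1 at an unadjusted p under 0.05, beside 5.73% of all genes. ECM29 differed by 0.85 ± 0.34, RPN5 by 0.65 ± 0.33, RPN9 by 0.54 ± 0.31, RPN7 by 0.52 ± 0.29, RPN10 by 0.16 ± 0.25, PRE5 by 0.13 ± 0.25, UMP1 by 0.25 ± 0.28 and RPN4 by 0.17 ± 0.40. In both mutants RPN4 was lower late than early, by -0.61 in cdc14-3 and -0.55 in cdc15-2, and in the 37 °C wild type the value was -0.72.

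**Figure D5:**
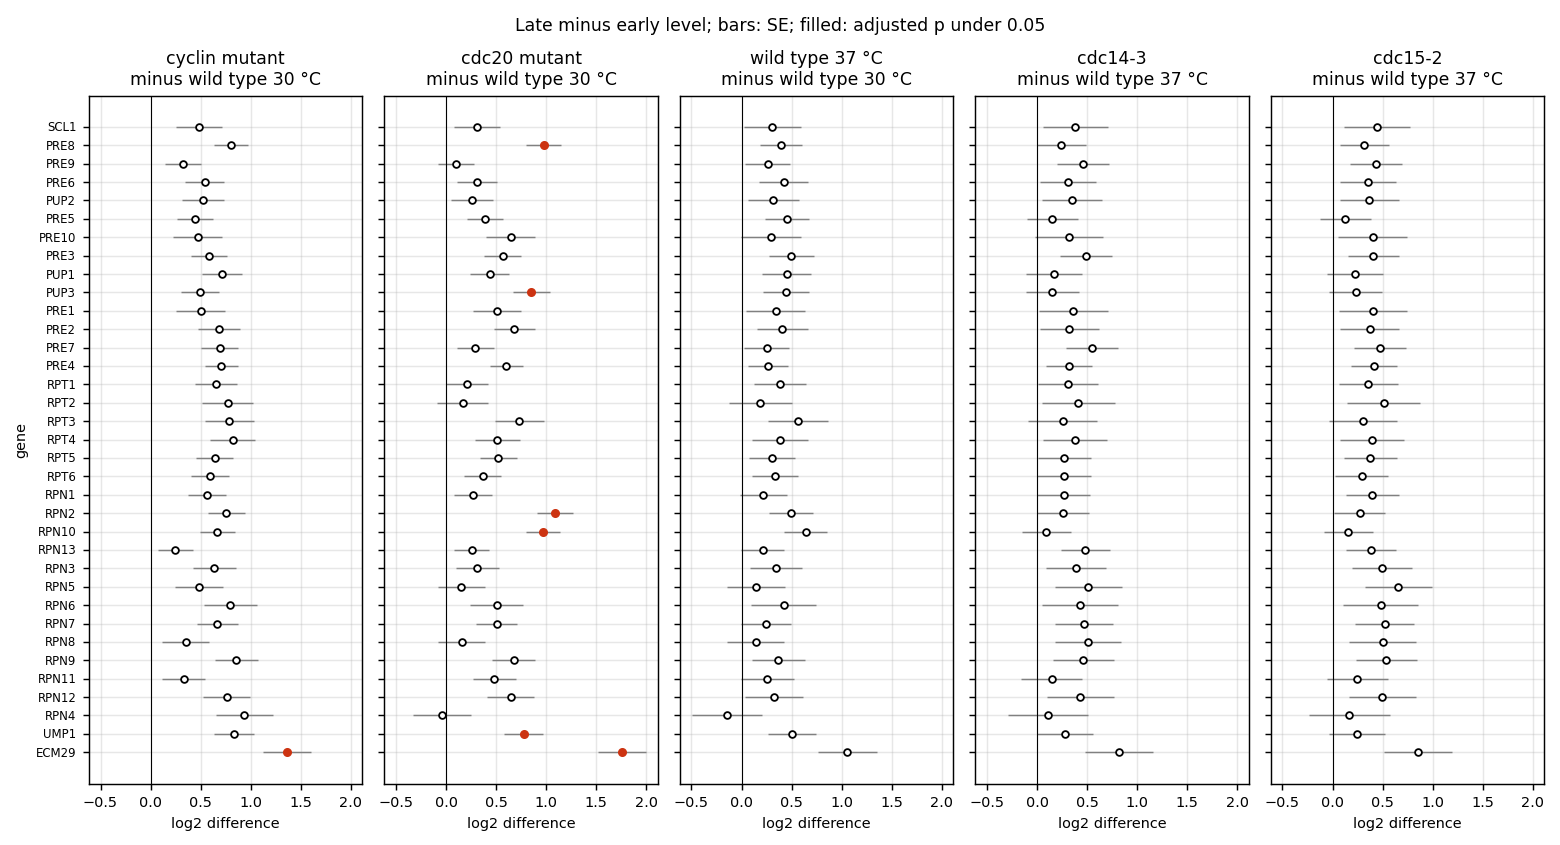
Difference between groups in late minus early level (horizontal axis, log2) for each of the 35 members (vertical axis), in the same 5 comparisons, with bars for the SE and filled red points for an adjusted p under 0.05. RPN4 in the cdc20 mutant and in the 37 °C wild type is below 0 and all other points are above it; the filled ones are ECM29 in the cyclin mutant and ECM29, RPN2, PRE8, RPN10, PUP3 and UMP1 in the cdc20 mutant.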

How the data were processed

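Per the submitters' processing notes the affy package was used (version not given in the sources used here), and how arrays were normalized is not given there. The authors deposited 1 processed intensity per probe set on a linear scale, from 22.2 to 35171, with array medians of 1056 to 1362. The design had assumed log2 values, so log2 of the deposited intensities was taken first, with a pseudocount of 0. Of 5900 probe sets, 5498 were named for 1 gene through the platform annotation and the reference gene table, 184 were controls and 218 had no name. The probe set with the highest mean was kept, leaving 5449 genes.

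Tests were run in R 4.3.3 with limma 3.58.1 (splines 4.3.3), with Benjamini-Hochberg adjustment over all genes. Change over time was a natural spline (5 degrees of freedom) with each course given its own intercept. Periodicity was a cosine and a sine, called at an adjusted p under 0.05 and 1.5-fold peak-to-trough. Late level and late minus early level used 1 value per course and 6 group means, with 3 residual degrees of freedom. The code was tested on simulated data. Named genes were RPN4, UMP1, ECM29, the 3 largest and 2 smallest subunits per group or comparison, up to 4 genes of each other list with the widest ranges, and the 10 genes most like the subunit mean; further genes were named after their values were seen. Members and lists were chosen with earlier results of these data known. Alternatives were quantile normalization, an added pseudocount, a filter on dim genes, another probe set rule, other windows, periods and spline, the values as deposited, and samples or courses left out.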

Additional observations from a re-analysis of the deposited data

Results flagged for a closer look

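Of the members, 7 differences in late minus early level between groups passed the test of the difference itself. They are 1.36 for ECM29 between the cyclin mutant and wild type at 30 °C, and, between the cdc20 mutant and wild type at 30 °C, 1.75 for ECM29, 1.09 for RPN2, 0.97 for PRE8, 0.97 for RPN10, 0.85 for PUP3 and 0.77 for UMP1. All are log2 differences of 2 courses against 2. Each of these genes was lower late than early in both courses of the 30 °C wild type. The early mean of the cdc20 mutant includes an array at 60 min, near the trough, and that of wild type does not. In replicate 1 the subunit mean read 12.62 and 11.60 at 40 and 60 min in the cdc20 mutant. In the 30 °C wild type it read 12.72 and 12.39 at 30 and 46 min. What part the sampling times have in the differences was not tested. All 7 calls were lost with an earlier end of the late window.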

How the results depend on the processing

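Labels do not say that replicates are separate cultures, and 3 groups have 1 course. Beside genotype, the temperature, array series, medium, synchronisation and RNA protocol differ with the group. Counts are of the 35 members called. Apart from the adjusted p alone, shares of all genes were not counted for the alternatives. Change over time in the 30 °C wild type (32) gave 2 with samples before 60 min left out (added after the data were seen) and 7 with replicate 2's values as deposited. The 37 °C wild type (6) gave 14 without samples before 30 min, 0 without those before 60 min and 23 by the adjusted p alone. The cdc20 mutant (32) gave 19, 6 and, with a replicate left out, 17 to 33. By the adjusted p alone cdc14-3 (0) gave 25 and cdc15-2 (0) gave 20. The periodic count (22) was 1 without samples before 60 min, 0 as deposited and 0 to 0 with a replicate left out. With a course left out, late level counts ran from 0 to 18 (cyclin mutant, 12), 0 to 11 (cdc20 mutant, 8), 3 to 15 (37 °C wild type, 12), 0 to 1 (cdc14-3, 1) and 0 to 1 (cdc15-2, 0), and late minus early counts from 0 to 1 (cyclin mutant, 1) and 0 to 10 (cdc20 mutant, 6). A window of 100 to 180 min gave 0 for late level in the cyclin mutant and cdc14-3 and 0 for late minus early in both mutants, and a window from 120 min gave 0 for late minus early in the cyclin mutant. With the values as deposited all of these late level and late minus early counts were 0. The replicate numbers did not pair the samples (correlations of deviations -0.0335, 0.0461 and 0.0768). With the replicate block the late level counts were 9 (cyclin mutant), 6 (cdc20 mutant), 8 (37 °C wild type) and 0 (cdc14-3), and the late minus early counts 0 (cyclin mutant) and 7 (cdc20 mutant). Late level differences that changed sign as deposited were PRE4 -0.55, RPN12 -0.26 and ECM29 -0.15 in the cyclin mutant, RPT1 1.18, RPT4 0.45, RPT5 0.27, RPN1 0.28 and RPN12 -0.36 in the cdc20 mutant, and PRE7 -0.14, RPT5 0.18, RPN1 0.30 and RPN10 1.30 in the 37 °C wild type. The 1-row displacement is the construction of that alternative; the other causes were not tested. Over all alternatives 156 of 211 counts stayed within 1.5 times of their value or equal to it.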
